A study of Mus musculus with 2 samples.

Results

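GATA4 binding was examined at 10 genes that encode transcription factors of the liver sinusoidal endothelium: the SOXF genes Sox7, Sox17 and Sox18, the bZIP gene Maf, the homeobox genes Meis1, Meis2 and Hhex, the nuclear receptor gene Nr2f2, the zinc-finger gene Bcl6b and the bHLH-zipper gene Tfec. All 10 were found by symbol among 21755 protein-coding genes of GENCODE mouse release 21. A peak was assigned to a gene when its summit lay in the gene or within 10 kb of it, which gave 54 of the 24050 peaks analysed. The peaks came from sequencing of DNA immunoprecipitated with an antibody to GATA4 (ChIP-seq) from healthy adult mouse liver, taken whole. There was 1 group of 2 samples, numbered as biological replicates 1 and 2. No genotype, strain or treatment was labelled and the age is given as unknown. Both samples name the same biosample and donor, and differences between the replicates may therefore be technical. Whole liver holds hepatocytes, endothelial, stellate, biliary and immune cells, and a peak does not tell in which of them GATA4 was bound. No RNA was measured, so the endothelial identity in the name of the gene set was not checked against expression.

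GATA4 is a zinc-finger transcription factor that recognises WGATAR (W for A or T, R for A or G). In the liver it is known in sinusoidal endothelial and stellate cells and, more weakly, in hepatocytes, and in the sinusoidal endothelium it is required for the fenestrated, discontinuous type of vessel. Endothelial enhancers often pair GATA motifs with ETS motifs, whose core is GGAA. SOXF proteins act in endothelial specification, in arteries and in lymphatic vessels. MEIS proteins are homeodomain factors of the TALE class, NR2F2 (COUP-TFII) sets venous identity, and HHEX is needed for growth of the liver bud.

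The sequence around the strongest peak of each gene is shown because the GATA and ETS motifs discussed below lie in it. A further 5 windows, chosen after their values were seen, show the Sox7 promoter, a Meis2 peak with both motifs 4 bases apart, the other Tfec peaks and the Hhex downstream peak. Each reads 5′ to 3′ on the plus strand of GRCm38.p6 (mm10, RefSeq sequence), with WGATAR and MGGAAR (M is A or C) on either strand in capitals. A window holds the summit and 50 bp to each side. 3 of them were shortened where a window reached transcribed untranslated sequence: those of the Sox7 and Tfec promoters stop before it, and for Sox17, whose summit lies in it, 29 bases around the ETS motif are given.
Sox7 downstream, chr14:63957893-63957993: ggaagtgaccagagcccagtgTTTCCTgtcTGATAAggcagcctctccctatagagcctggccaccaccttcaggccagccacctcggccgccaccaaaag
Sox7 promoter, chr14:63943596-63943672: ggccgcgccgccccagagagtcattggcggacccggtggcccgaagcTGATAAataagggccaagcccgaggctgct
Sox17 promoter, chr1:4496479-4496507: atccggagcggCTTCCTgcaagccttgct
Sox18 downstream, chr2:181663399-181663499: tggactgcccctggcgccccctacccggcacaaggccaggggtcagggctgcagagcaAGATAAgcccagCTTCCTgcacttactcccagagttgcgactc
Maf intron, chr8:115697556-115697656: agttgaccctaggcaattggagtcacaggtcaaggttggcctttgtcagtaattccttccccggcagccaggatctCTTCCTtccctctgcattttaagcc
Meis1 intron, chr11:18957223-18957323: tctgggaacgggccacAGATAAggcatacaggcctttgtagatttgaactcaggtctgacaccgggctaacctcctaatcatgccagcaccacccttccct
Meis2 intron, chr2:115933453-115933553: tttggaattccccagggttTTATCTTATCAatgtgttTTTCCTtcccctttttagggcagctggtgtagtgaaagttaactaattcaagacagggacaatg
Meis2 intron near the 5′ end, chr2:116049915-116050015: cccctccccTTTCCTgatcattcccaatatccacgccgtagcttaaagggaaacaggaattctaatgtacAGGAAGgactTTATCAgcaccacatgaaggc
Nr2f2 downstream, chr7:70346193-70346293: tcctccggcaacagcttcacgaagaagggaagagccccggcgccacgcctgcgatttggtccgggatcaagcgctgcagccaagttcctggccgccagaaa
Bcl6b promoter, chr11:70230338-70230438: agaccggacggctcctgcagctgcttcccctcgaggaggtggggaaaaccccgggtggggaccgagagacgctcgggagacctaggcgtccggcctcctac
Tfec intron, chr6:16870164-16870264: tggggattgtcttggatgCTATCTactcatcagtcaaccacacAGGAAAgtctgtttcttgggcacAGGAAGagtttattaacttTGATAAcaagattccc
Tfec intron near the 5′ end, chr6:16891890-16891990: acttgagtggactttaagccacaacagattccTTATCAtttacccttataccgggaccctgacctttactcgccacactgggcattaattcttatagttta
Tfec promoter, chr6:16898442-16898541: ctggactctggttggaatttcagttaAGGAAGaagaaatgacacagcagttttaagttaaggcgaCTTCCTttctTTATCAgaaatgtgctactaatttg
Hhex intron, chr19:37435725-37435825: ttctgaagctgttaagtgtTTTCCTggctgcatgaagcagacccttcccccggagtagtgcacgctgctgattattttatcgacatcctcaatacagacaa
Hhex downstream, chr19:37442703-37442803: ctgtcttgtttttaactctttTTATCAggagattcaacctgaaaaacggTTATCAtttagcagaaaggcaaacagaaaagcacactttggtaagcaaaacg
The lines show 4 arrangements: an ETS and a GATA motif in 1 window (Sox7 downstream, Sox18, both Meis2 windows, the strongest Tfec intron peak and the Tfec promoter), GATA motifs alone (the Meis1 intron, the Sox7 promoter, the second Tfec intron window, Hhex downstream), an ETS motif alone (Sox17, Maf, the Hhex intron) and neither (Nr2f2, Bcl6b).

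GATA4 peaks lay at all 10 genes in the authors' optimal list. Across all protein-coding genes 47.6% had a summit by the same rule. By their best peak the genes also stood high: these peaks ranked 74 to 15948 of 24050 by signal score. Their median was 2519.5, against 8666 for all genes with a summit. A best rank is picked from all peaks of a gene, and the 10 genes had a median of 4 summits. All genes with a summit had a median of 2. Over all 54 peaks the median rank was 11897.5, close to the 12025.5 of all peaks. The signal score is the peak caller's own value, deposited without a unit, and rank 1 is the strongest. In order of best rank the genes were Hhex at 74, Meis2 at 694, Sox18 at 1129, Sox7 at 1541, Meis1 at 2325, Nr2f2 at 2714, Maf at 3493, Tfec at 3805, Sox17 at 4045 and Bcl6b at 15948. The optimal list has 1 score per peak from both replicates and no error, so neighbours in this order cannot be separated. Only Bcl6b fell below the median of all genes with a summit.

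The replicates differed in how much they held. Their own thresholded lists come from a later processing run than the optimal list, so presence in them reflects both the replicate and the run. Replicate 1's own thresholded list had 4287 peaks and replicate 2's had 26314. Among the 10 genes 6 had a summit there, against 11.4% of all genes, and Sox7, Sox17, Sox18 and Bcl6b had none. Replicate 2's list had a summit at 10 of 10, against 51.8% of all genes. The authors' conservative list had one at 9 of 10, against 21.9% of all genes, and Bcl6b was the one without. No test was made of these counts, since the genes were chosen with results from these lists known.

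Meis1 with 14 peaks and Meis2 with 13 held 27 of the 54. Maf had 6, Sox18, Nr2f2 and Bcl6b had 4 each, Tfec and Hhex had 3 each, Sox7 had 2 and Sox17 had 1. As many summits as at Meis1 were found at 0.285% of all genes and as many as at Meis2 at 0.368%. Gene length enters these counts, because a long gene offers more places for a summit. Among genes within a factor of 1.5 of the same span, 0.619% had at least as many summits as Meis1, 1.19% as many as Maf, 1.95% as many as Sox18, 2.21% as many as Bcl6b, 3.01% as many as Meis2, 3.58% as many as Nr2f2 and 6.04% as many as Hhex. For Sox7 the share was 15.6%, for Tfec 21.4% and for Sox17 33.7%. Sox18, at 1.8 kb the shortest of the 10, was thus further out among genes of like span than among all genes, where 7.79% had at least as many. Of its summits, those ranked 1129 and 12860 lay nearer to the coding start site of Gm29797 than to that of Sox18. Sox17, Tfec and Sox7 did not stand out by number.

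**Figure D1:**
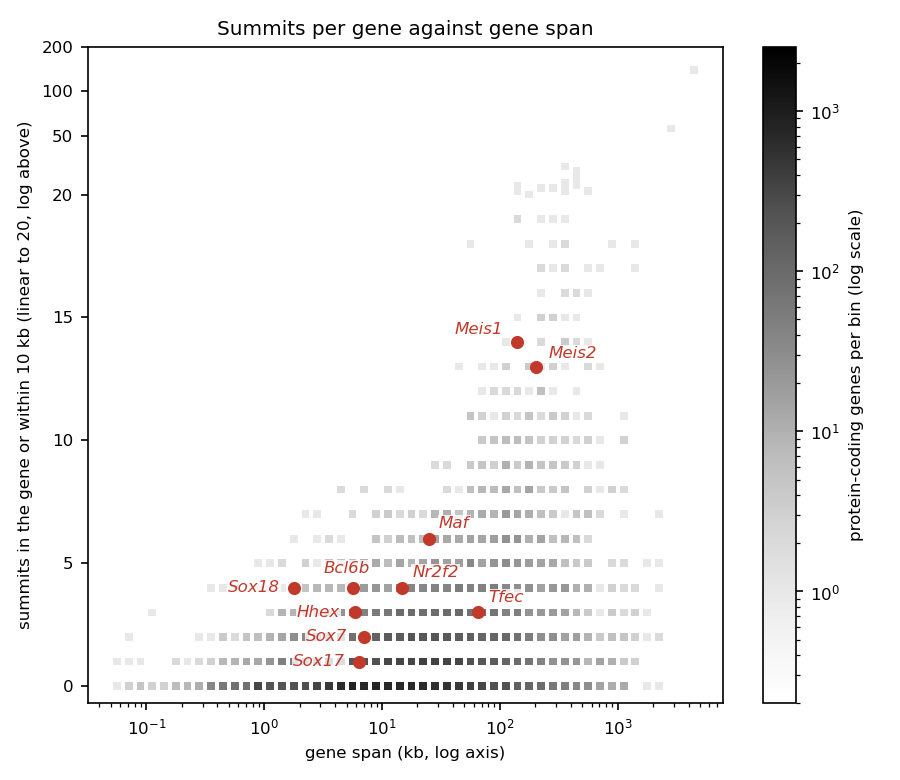
Number of GATA4 summits in each protein-coding gene or within 10 kb (vertical axis) against the span of the gene in kb (log axis); grey squares are bins of all protein-coding genes, shaded by their number, and the labelled red points are the 10 genes. The vertical axis is linear to 20 and logarithmic above; Meis1 and Meis2 lie above most genes of like span, with others higher, and Sox18 and Bcl6b lie above most short genes.

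The SOXF genes had 7 peaks, all in replicate 2's list and none in replicate 1's. Of all peaks, 82.5% were in replicate 2's list and only 17% in replicate 1's. Sox7 (chr14:63943673-63950732, plus strand) had a peak at each of 2 places. The stronger, chr14:63957862-63958053, lay 7211 bp beyond the 3′ end, ranked 1541 with a signal score of 96.8, and was in the conservative list. Its summit window holds TTTCCT and TGATAA separated by 3 bases. The promoter peak, chr14:63943576-63943722, ranked 3663, with its summit 27 bp upstream of the start site and inside a TGATAA. In the relaxed lists, which hold 300000 lines per replicate before any threshold, the downstream peak ranked 11264 in replicate 1 and 1021 in replicate 2. The promoter peak ranked 56323 and 2739. Both Sox7 peaks thus ranked lower in replicate 1.

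Sox17 (chr1:4490931-4497354, minus strand) had 1 peak, chr1:4496445-4496534, at rank 4045 with a signal score of 66.2. Its summit lay 0.866 kb inside the gene, in the first exon of 2 transcripts and 75 bp upstream of another annotated start site. CTTCCT lay 2 bp from the summit, and no WGATAR lay within 50 bp of the summit. The nearest began within the window and ran past its edge, 46 bp away. This peak was in the conservative list and ranked 16659 in replicate 1's relaxed list and 3160 in replicate 2's.

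Sox18 (chr2:181669836-181671640, minus strand) had 4 peaks over a gene of 1.8 kb. The strongest, chr2:181663336-181663568, lay 6387 bp beyond its 3′ end, ranked 1129 with a signal score of 107, and was the only one of the 4 in the conservative list. It holds AGATAA 6 bases from CTTCCT. The nearest coding start site to it is that of Gm29797, 6415 bp away, so its assignment to Sox18 follows the rule and no measured contact. The promoter peak, chr2:181671513-181671872, ranked 6088 with its summit 53 bp upstream of the start site. It holds an ETS motif and no WGATAR, with AGATAT as its only GATA. The remaining 2 ranked 12860 and 18501. The first of them lay 9923 bp beyond the 3′ end and 2879 bp from the Gm29797 start site. Every Sox18 peak held at least 1 ETS motif, as did 46% of all peaks. The strongest ranked 4534 in replicate 1's relaxed list and 779 in replicate 2's, and the other 3 had no overlapping line in replicate 1's relaxed list. Of all peaks, 72.1% had such a line.

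**Figure D2:**
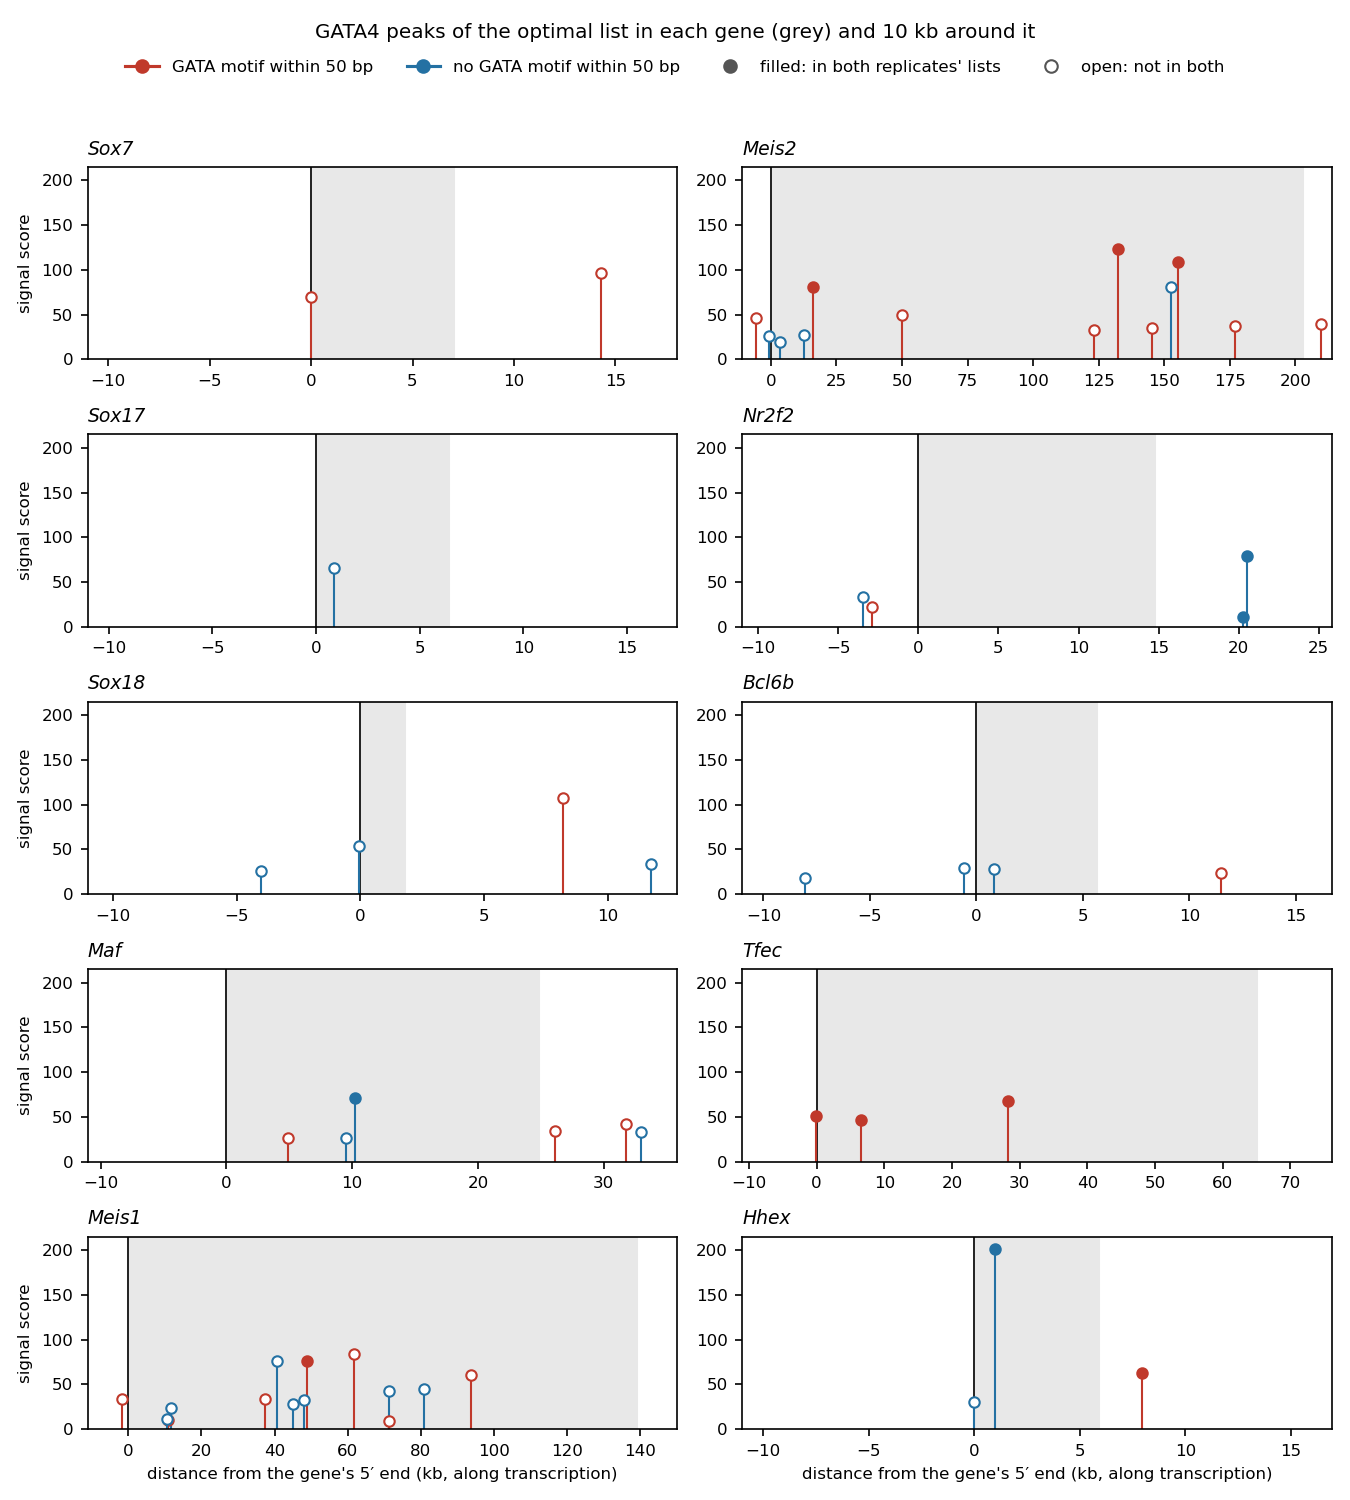
Position of each GATA4 summit relative to the 5′ end of the gene (horizontal axis, kb along the direction of transcription; scales differ between panels) and its signal score (vertical axis, no unit). Grey spans the gene, red marks a WGATAR motif within 50 bp of the summit and blue none, and filled circles are peaks in both replicates' lists; the Hhex peak near 1 kb reaches 201.5 and all 3 Tfec circles are filled.

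Maf, which encodes the bZIP factor c-MAF (chr8:115682942-115707794, minus strand), had 6 peaks. Of these, 3 lay beyond its 3′ end, 2 in intron 1 of a transcript with 2 introns, and 1 in the untranslated part of an exon. That exon is the only one of another transcript, and its summit also lies in intron 1 of the first transcript. The strongest, chr8:115697426-115697785 in intron 1, ranked 3493 with a signal score of 70.7 and was in both replicates' lists. Its ranks in the relaxed lists were close, 3828 in replicate 1 and 3711 in replicate 2. It holds CTTCCT and no WGATAR within 50 bp. The 3 weaker peaks with WGATAR ranked 9217, 12716 and 18271. No peak lay at the Maf promoter.

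Meis1 (chr11:18879817-19018985, minus strand) had 13 of its 14 peaks in introns and 1 at 1591 bp upstream of its start site, and none at the promoter. The strongest, chr11:18957228-18957327 in intron 7, ranked 2325 with a signal score of 83.5 and holds AGATAA and no ETS motif. The peak chr11:18969910-18970269 in intron 7 ranked 2917 and was the one Meis1 peak in both replicates' lists. It holds AGATAG and AGATAA and ranked 2120 in replicate 1's relaxed list and 3653 in replicate 2's. The peak chr11:18981382-18981741 was in replicate 1's list and not in replicate 2's, with relaxed ranks of 2486 and 32384, and holds TGATAA at 2 places. Of the 14 peaks, 7 had WGATAR and 8 had an ETS motif, against 52.8% and 46% of all peaks. The others ranked 2908 to 23935, and in 2 places a pair of overlapping peaks was listed, at ranks 8944 and 23935 and at ranks 23628 and 23501.

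Meis2 (chr2:115863064-116065839, minus strand) had 10 of its 13 peaks in introns. The strongest, chr2:115933323-115933682 in intron 8, ranked 694 with a signal score of 123. It holds AGATAA and TGATAA that share 1 base, 7 bases from TTTCCT. It ranked 126 in replicate 1's relaxed list and 1894 in replicate 2's, the highest replicate 1 rank of the 54. The peak chr2:115910334-115910514 in intron 9 ranked 1073 with 1 AGATAG, and its relaxed ranks were 877 and 1775. The peak chr2:116049892-116050049 in intron 6 ranked 2562 and holds AGGAAG 4 bases from TGATAA, with relaxed ranks of 5382 and 2205. These 3 were in both replicates' lists. The promoter peak, chr2:116066549-116066908, ranked 18460 with its summit 890 bp upstream of the start site and inside the long noncoding RNA gene 2700033N17Rik. It holds neither motif, and 64.4% of its window is masked as repeat. The other 9 ranked 2540 to 22600. Of the 13 peaks, 9 had WGATAR and 5 had an ETS motif, against 52.8% and 46% of all peaks.

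Nr2f2 (chr7:70351944-70366735, minus strand) had 4 peaks, all outside the gene. The strongest, chr7:70346115-70346294, lay 5701 bp beyond the 3′ end, ranked 2714 with a signal score of 78.8 and was in both replicates' lists. A second line of the list, chr7:70346265-70346624 at rank 23626, overlaps it and matches the same peak in each replicate, with ranks of 6216 in replicate 1 and 2351 in replicate 2. Neither holds WGATAR or an ETS motif in its window, and from the strongest summit the nearest WGATAR lay 330 bp away. The other pair lay 2875 bp and 3460 bp upstream, in the noncoding gene B130024G19Rik, at ranks 21483 and 13532.

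Bcl6b, which encodes a BTB zinc-finger repressor related to BCL6 (chr11:70224128-70229798, minus strand), had the lowest-ranked best peak of the 10 genes. Its 4 peaks ranked 15948, 17080, 20184 and 22827, with signal scores from 17.6 to 29.3, and none was in replicate 1's list or the conservative list. The strongest, chr11:70230208-70230567, lay 649 bp upstream of a Bcl6b start site, and chr11:70228798-70229157 lay 761 bp after it in intron 2. The first had no WGATAR, and the second had CGATAA in its place. The peak chr11:70237647-70238006 lay 23 bp from the start site of the neighbour 0610010K14Rik, and the fourth, chr11:70218139-70218498, lay in an intron of Slc16a13 and holds AGATAA directly beside an ETS motif. Just past the limit, 10.2 kb upstream of Bcl6b and at the promoter of Rnasek, lay a peak at rank 1692, stronger than all 4. In this gene-dense stretch the 10 kb rule decided which peaks counted.

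Tfec encodes a factor of the MiT/TFE family (chr6:16833373-16898441, minus strand). All 3 of its peaks were in both replicates' lists and in the conservative list, and each holds TGATAA. Of all peaks, 16.3% were in both replicates' lists, 38.2% were in the conservative list and 16% held TGATAA. The strongest, chr6:16870034-16870393, lay in intron 1, 28.2 kb after the start site, and ranked 3805 with a signal score of 68. The second intronic peak, chr6:16891760-16892119, lay 6.5 kb after the start site and ranked 7726, and the promoter peak, chr6:16898311-16898670, had its summit 50 bp upstream of the start site and ranked 6581. At the promoter an ETS motif, CTTCCT, and the GATA motif, read as TTATCA on the plus strand, are separated by 4 bases. Their relaxed ranks in replicate 1 were 793, 2750 and 4701, and in replicate 2 they were 7701, 13177 and 8309. Each thus ranked higher in replicate 1.

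Hhex (chr19:37434810-37440731, plus strand) held the strongest of the 54 peaks. It was chr19:37435618-37435950, at rank 74 with a signal score of 201.5, and 0.386% of all genes had a best peak ranked as high. Its summit lay 0.965 kb after the 5′ end of the gene, in intron 1, and 964 bp upstream of a second annotated start site, which made it a promoter peak by the 1 kb rule. Both replicates had it near the top, at rank 197 in replicate 1's relaxed list and 69 in replicate 2's. It holds TTTCCT and no WGATAR. The hexamer CGATAA, which differs from WGATAR at its first letter, begins 26 bp from the summit, and the nearest WGATAR lay 72 bp away. The downstream peak, chr19:37442573-37442932, lay 2022 bp beyond the 3′ end, ranked 4603 and holds TGATAA at 2 places, 1 of which covers the summit. Its relaxed ranks were 1556 and 8009, so it ranked higher in replicate 1. The last peak, chr19:37434633-37434992 at the first start site, ranked 15171, was in replicate 2's list and not in replicate 1's, and held CGATAG.

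Across the 54 peaks, 32 lay inside the gene, 11 upstream and 11 downstream. By class 10 were at promoters (18.5%, against 21.6% of all peaks), 1 in an exon, 28 in introns (51.9% against 40.4%) and 15 between genes (27.8% against 35.7%). Of the promoter peaks, 9 lay at the gene's own start sites, at 7 of the 10 genes, and Maf, Meis1 and Nr2f2 had none. The summits nearest to a limit lay 9.92 kb from Sox18 inside it and 10.2 kb from Bcl6b outside it, and 8 further peaks lay between 10 kb and 25 kb of a gene.

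The motif content was close to that of all peaks. WGATAR lay within 50 bp of the summit in 28 of 54 peaks, or 51.9% (95% Wilson interval 38.9 to 64.6), against 52.8% of all peaks. MGGAAR, the ETS core, lay in 28 of 54, or 51.9%, against 46%. Both lay in 15 of 54, or 27.8% (17.6 to 40.9), against 23.2%. The background shares fall inside all 3 intervals, which cover counting over peaks only. In the 15 peaks with both, the median number of bases between the nearest pair was 7, against 14 in all such peaks, and 8 of 15 had at most 10 bases, or 53.3% (30.1 to 75.2) against 41.9%, which also falls inside the interval. Promoter peaks held WGATAR in 2 of 10, those of Sox7 and Tfec, against 25.7% of all promoter peaks, and other peaks in 26 of 44, against 60.3%.

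Of the 26 peaks without WGATAR, 11 held GATA with another letter beside it, as CGATAA at Hhex and AGATAT at Sox18 do, 1 (Sox17) held the part of a WGATAR that runs past the window, and 14 held no GATA within 50 bp. GATA with any letters beside it lay in 40 of the 54 peaks, or 74.1% (61.1 to 83.9), against 67.8% of all peaks. WGATAR lay in 51.9% against 52.8%. Among the 35 WGATAR sites, TGATAA made up 40% (14 sites) against 25.9% of sites in all peaks, AGATAA 34.3% against 45.3%, AGATAG 22.9% against 18% and TGATAG 2.86% against 10.7%. The TGATAA sites lay in 12 peaks, 22.2% of the 54 (13.2 to 34.9), against 16% of all peaks.

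**Figure D3:**
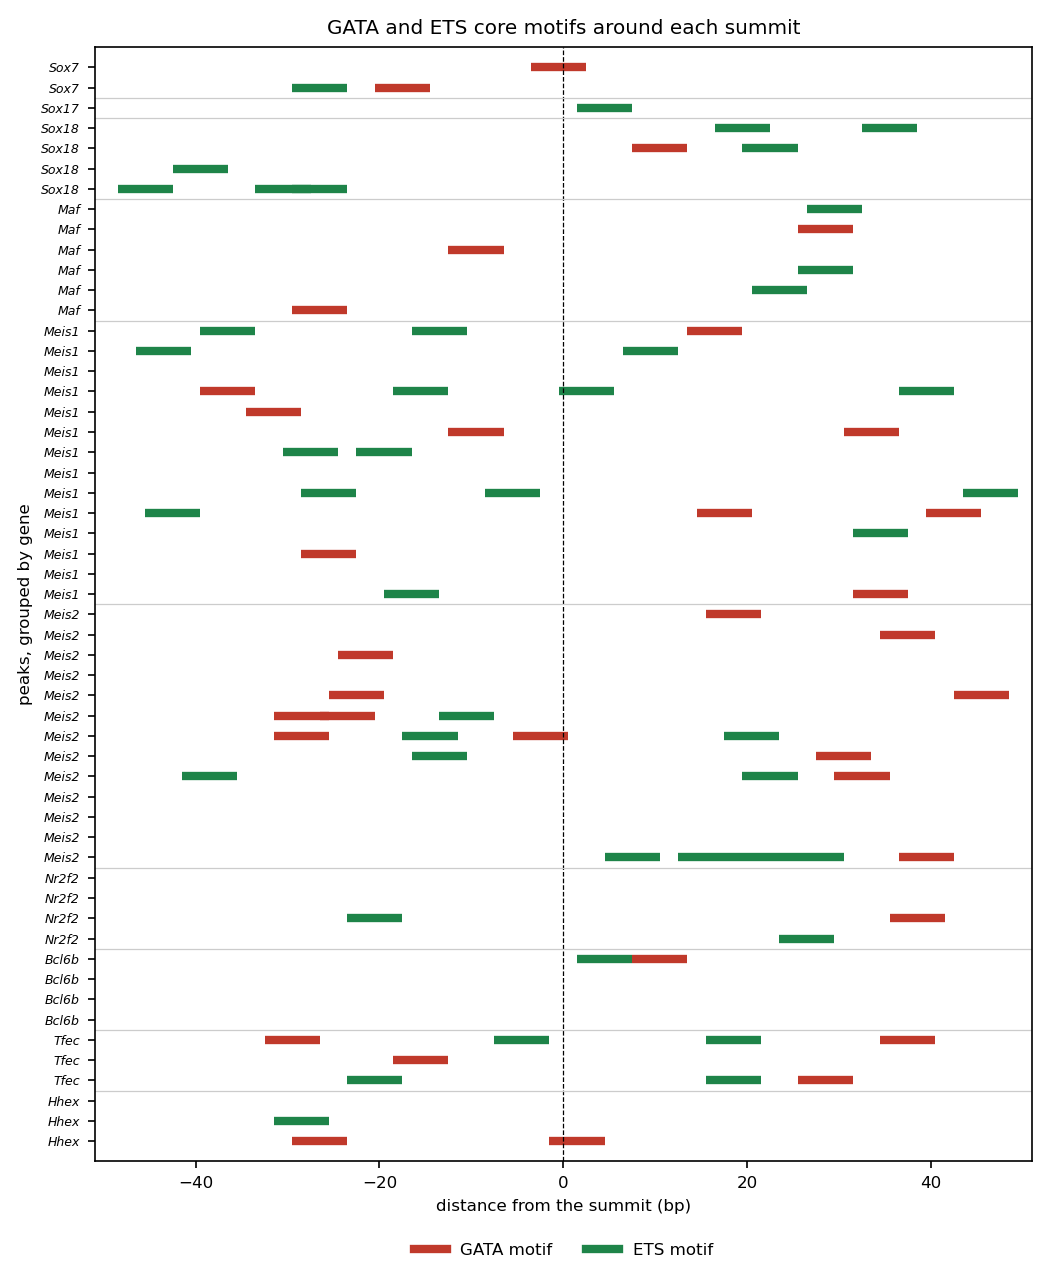
Position of each GATA motif (WGATAR, red) and ETS motif (MGGAAR, green) relative to the summit in bp, 1 row per peak in genomic order within each gene; touching bars are adjacent or overlapping sites. Rows of Sox7, Sox18, Meis2 and Tfec show the 2 colours a few bases apart, and 13 rows are empty.

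The motifs of the encoded factors were searched in the same windows, on both strands. Of the 7 peaks at SOXF genes 0 held ACAAWR, the SOX core, which lay in 21.7% of all peaks. TGACAG, the MEIS core, lay in 4 of 27 peaks at Meis1 and Meis2, against 7.69%. The MAF core TGCTGA lay in 0 of 6 peaks at Maf (10.1% of all), AGGTCA of nuclear receptors in 0 of 4 at Nr2f2 (11.8%), the BCL6 motif in 0 of 4 at Bcl6b (1.07%), the E-box CACGTG in 0 of 3 at Tfec (2.27%) and the homeobox core TAATKR in 0 of 3 at Hhex (9.44%). K stands for G or T. With 3 to 7 peaks per gene or family a 0 says only that these letters were not in these windows. Over the 54 peaks ACAAWR lay in 6, or 11.1% (5.19 to 22.2), against 21.7%, and WTATGC, a sequence of no named factor here, in 3, or 5.56%, against 3.89%.

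**Figure D4:**
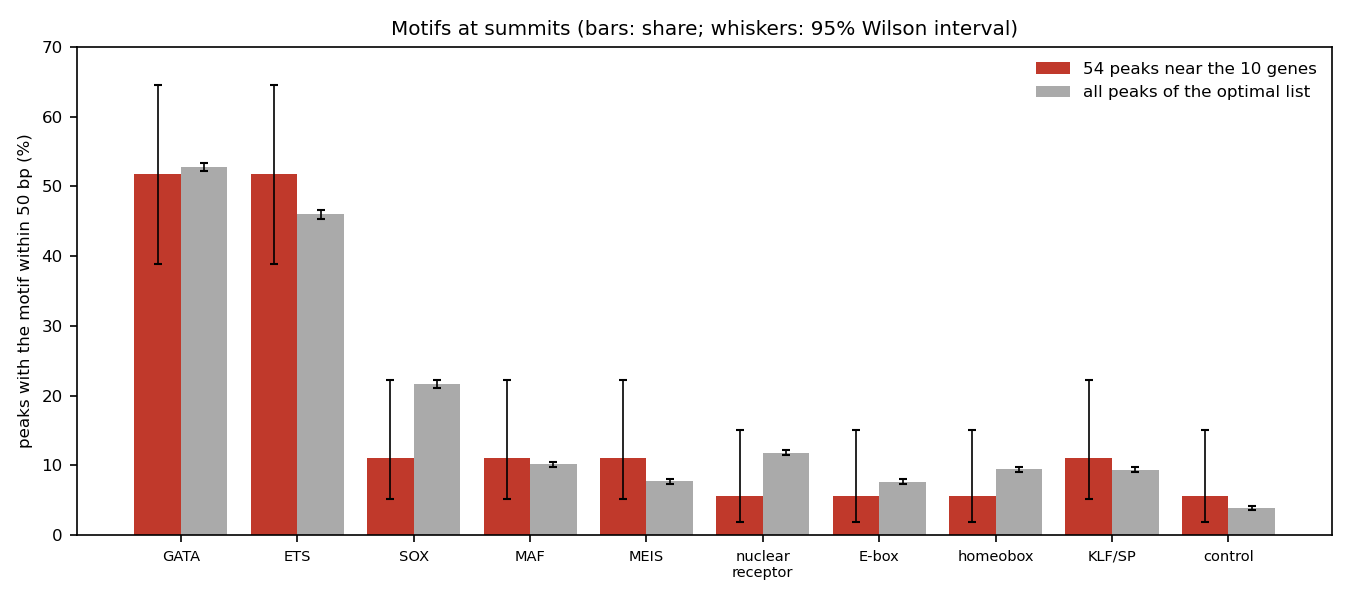
Share of peaks with each motif within 50 bp of the summit (vertical axis, percent) for the 54 peaks (red) and all 24050 peaks (grey), with 95% Wilson intervals; the motif cores are those of GATA, ETS, SOX, MAF, MEIS, nuclear receptor, E-box (here CAGCTG), homeobox and KLF/SP (GGGCGG) factors and the control WTATGC. For each motif the grey bar ends inside the red interval.

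Presence in the replicates' lists differed by gene. Of the 54 peaks, 13 overlapped a peak of replicate 1's list (24.1%, 14.6 to 37, against 17% of all peaks), 46 one of replicate 2's (85.2% against 82.5%) and 26 one of the conservative list (48.1%, 35.4 to 61.1, against 38.2%). In both replicates' lists were 12 (22.2%, 13.2 to 34.9, against 16.3%), at Maf, Meis1, Meis2, Nr2f2, Tfec and Hhex, and in neither were 7 (13% against 16.7%). Both lines of the overlapping Nr2f2 pair count in the 12 and in the 13, though they match 1 peak of replicate 1's list. The background falls inside each of the intervals given. Of the 12, 8 held WGATAR (66.7%) against 75.4% of all peaks in both lists. Of the strongest peaks of the 10 genes, 5 held WGATAR (50%, against 51.6% of the strongest peaks of all genes) and 7 an ETS motif (70%, 39.7 to 89.2, against 46.2%). Replicate 1's list held 5 of them (50%, 23.7 to 76.3, against 21.1%) and the conservative list 9 (90%, 59.6 to 98.2, against 42.5%). These last 2 shares lay above the background by more than the counting interval, and the genes had been chosen with such results known. The strongest peaks were also picked from a median of 4 summits per gene, against 2 for all genes with a summit. Their median rank was 2519.5, against 8666. How far presence in these lists follows from rank was not tested, so the 2 shares are descriptions only.

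In the relaxed lists all 54 peaks were found in replicate 2, against 99.9% of all peaks. In replicate 1 38 were found, or 70.4%, against 72.1% of all peaks. Of the 38, 17 ranked higher in replicate 1, or 44.7% (30.1 to 60.3), against 37% of all peaks. By gene these were 6 of 10 at Meis1, 5 of 11 at Meis2, 3 of 3 at Tfec, 2 of 4 at Maf and 1 of 2 at Hhex, and 0 of 2 at Sox7, 0 of 1 each at Sox17, Sox18 and Bcl6b, and 0 of 3 at Nr2f2. A pair of peaks at Meis1 and a pair at Nr2f2 each match a single line of the relaxed lists, and with these counted once Meis1 had 5 of 9 and Nr2f2 0 of 2. With WGATAR, 12 of 21 ranked higher in replicate 1, against 40.6% of all such peaks, and without it 5 of 17, against 31.8%. Because read depth is unknown, ranks and not signal scores were set side by side.

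**Figure D5:**
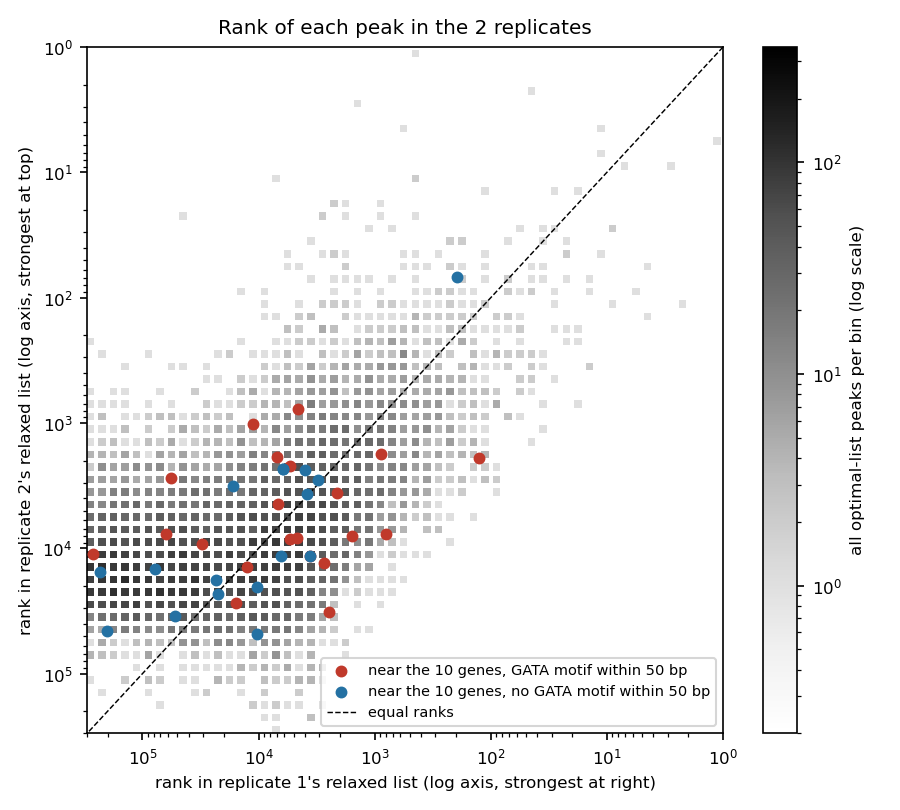
Rank of each peak in replicate 1's relaxed list (horizontal log axis, strongest at right) against replicate 2's (vertical log axis, strongest at top), for peaks found in both; grey squares are bins of all peaks, red and blue points are the 38 peaks near the 10 genes with and without WGATAR, and the dashed line marks equal ranks. The topmost blue point is the Hhex intron peak at ranks 197 and 69, and the red point below the line near rank 126 is the Meis2 intron peak.

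Related genes were counted by the same rule, from lists of relatives and of other endothelial factors. Of 47 genes 33 had a summit (70.2%, against 47.6% of all genes). Among relatives these were 5 of 7 SOX genes outside SOXF, 3 of 6 other MAF genes, 4 of 8 other TALE homeobox genes, 1 of 2 other NR2F genes, Bcl6, and 3 of 3 other MiT/TFE genes. Of 20 other endothelial factors 16 had one. Genes without a summit were Sox9, Sox11, Mafa, Maff, Nrl, Meis3, Pbx3, Pknox1, Tgif1, Nr2f1, Foxc1, Foxf1, Klf2 and Klf4. Among the best-ranked peaks were those at Epas1 (rank 14, intron), Lyl1 (rank 47, promoter), Erg (rank 324, intron) and Mecom (rank 563, intron). These 4, like the Hhex peak at rank 74, were in both replicates' lists, and unlike it they held WGATAR within 50 bp.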

How the data were processed

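GATA4 ChIP-seq peak lists on mm10 were used for 2 samples of 1 group. The authors deposited the optimal, conservative and relaxed lists from an earlier run. A later one gave each replicate's thresholded list, a second conservative list and a thresholded pooled list, per the file headers and notes deposited with the samples. Their aligner and peak caller were not given in the sources used here. Each peak's deposited signal score has no stated unit and was used only to rank peaks within a list. The deposited score of the irreproducible discovery rate (IDR) reads as the negative log2 of that rate times 125, with 1000 as its highest value, and thresholded lists begin at 537 (earlier run) or 540 (later run, an IDR of 0.05). Peaks outside the assembled chromosomes, 33 in the optimal list, were left out. Read depth is unknown and the control libraries were not used here.

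Summits were placed on GENCODE mouse release 21 basic genes and the GRCm38.p6 sequence. The protein-coding genes counted left out chromosome Y, and the peak lists kept it. A summit within 1 kb of a coding start site was called promoter, then exon, intron or intergenic. Overlap meant at least 1 shared base. Both strands were searched for motifs, which had to lie wholly in the 50 bp to each side of the summit, with MGGAAR overlapping MGGAAGT and WGATAR holding AGATAA. Distances to the nearest motif were searched to 500 bp. Python 3.11.15, pandas 2.3.3 and pysam 0.24.0 were used, and the assignment and motif code was tested on simulated data. The text names all 10 genes and gives in full the strongest peak of each gene, promoter peaks and peaks in both replicates' lists, and others that were chosen after their values were seen (the Meis1 peak of replicate 1's list alone, the fourth Bcl6b peak). The genes, the comparison lists and the limit of 10 bases between motifs were chosen with earlier results of these data known, so shares are descriptions and no test was made. Of the 5 best-ranked comparison genes that the rule names, 1 is not reported here.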

Additional observations from a re-analysis of the deposited data

How the results depend on the processing

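Of 50 alternative values, 36 stayed within 1.5 times the count, or within the 95% interval of the share, and 14 did not. Genes with a summit ranged from 6 to 10 when 1 replicate's list replaced the optimal one, and the 54 peaks became 12 to 58; the 6 and the 12 are those of replicate 1's list, that is without replicate 2. These lists come from the later run, so replicate and run change together and cannot be told apart. With summits in the gene only, 7 of the 10 genes had one, and Sox7, Sox18 and Nr2f2 had none. The number of peaks was 32 with summits in the gene only, 24 in the conservative list, 26 in the later conservative list and 109 when each peak went to the nearest coding start site. It was 51 with overlapping peaks counted as 1, a setting added after seeing the data. The WGATAR share of 51.9% was 20.4% for AGATAA, 66.7% within 100 bp, 74.1% for GATA alone (added after seeing the data) and 51.7% to 75% in single replicates' lists. Over all peaks AGATAA lay in 27.2% and GATA alone in 67.8%. WGATAR lay in 67.3% of all peaks of replicate 1's list and 49.1% of replicate 2's. The MGGAAR share of 51.9% was 9.26% for the longer MGGAAGT (9.94% of all peaks) and 74.1% within 100 bp. Without Meis1 and Meis2, also added after seeing the data, 92.6% of peaks were in replicate 2's list and 33.3% lay at promoters. Wider windows and shorter motifs hold more matches by construction, and shorter lists hold fewer peaks. For the 100 bp window no share of all peaks was set beside these values, so they do not set the 54 peaks apart. No paired analysis was possible because there is 1 group. Read depth is unknown, so an absence from replicate 1's list is an absence at its depth and threshold.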
